A study of Mus musculus with 2 samples.

Results

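Metallothionein genes and the genes that govern them were examined in GFP-positive cells sorted from mouse dorsal skin. Keratinocyte, fibroblast and myeloid marker RNAs were all abundant in this fraction. The set was chosen by gene name and holds 6 of the 50559 genes in the count tables, namely the 4 metallothioneins Mt1, Mt2, Mt3 and Mt4, the transcription factor gene Mtf1 and the zinc exporter gene Slc30a1. All 6 names were found. The cells were live, GFP-positive cells of the genotype Polr2b.fl.fl.GFP; K14Cre, a floxed allele of the RNA polymerase II subunit gene Polr2b with GFP, combined with a Cre recombinase driven by the keratin 14 promoter, which is active in basal keratinocytes. The mice were at postnatal day 21, when hair follicles rest (telogen), and the skin was digested with collagenase and trypsin, and sorted without propidium iodide-positive dead cells. The series holds 1 group of 2 replicate libraries that share this genotype, age and handling, without a control group. Whether each library came from its own animal, or from pooled animals, is not stated in the labels.

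Metallothioneins are short, cysteine-rich proteins that bind zinc and copper and buffer the free level of these metals in the cell. When zinc rises, the zinc finger protein Mtf1 enters the nucleus, binds short metal response elements in promoters and activates Mt1, Mt2 and Slc30a1, whose product pumps zinc out across the plasma membrane. Mt1 and Mt2 are expressed in most tissues and also respond to glucocorticoids and oxidative stress, Mt3 is best known from the brain, and Mt4 from stratified squamous epithelia such as epidermis and tongue.

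The promoter sequences are shown because the metal response element ties Mtf1 to the genes it controls. In RefSeq's mouse annotation on GRCm38.p6, Mt4, Mt3, Mt2 and Mt1 follow each other on the plus strand of chromosome 8, while Mtf1 lies on chromosome 4 and Slc30a1 on chromosome 1. The counts were made on another build (mm39), so these positions serve only to place the sequences. For each of the 6 genes, the 250 bases before the RefSeq start were searched on both strands for the core of the metal response element, spelled TGCACNC or TGCGCNC. The windows of Mt1, Mt2, Mt4 and Slc30a1 hold matches and are printed 5′ to 3′ on the plus strand, with the matched letters in capitals.
Mt2, chr8:94172368-94172617: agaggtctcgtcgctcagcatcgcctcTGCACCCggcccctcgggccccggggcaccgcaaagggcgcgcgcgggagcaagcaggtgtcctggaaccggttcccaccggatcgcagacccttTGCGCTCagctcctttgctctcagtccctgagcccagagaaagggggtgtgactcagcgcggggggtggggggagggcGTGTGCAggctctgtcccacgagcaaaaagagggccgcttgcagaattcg
Mt1, chr8:94178839-94179088: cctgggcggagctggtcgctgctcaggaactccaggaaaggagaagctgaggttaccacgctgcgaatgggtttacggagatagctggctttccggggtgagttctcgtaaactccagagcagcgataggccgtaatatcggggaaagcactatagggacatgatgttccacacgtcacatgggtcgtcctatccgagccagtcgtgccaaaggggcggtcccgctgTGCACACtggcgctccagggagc
Mt4, chr8:94136954-94137203: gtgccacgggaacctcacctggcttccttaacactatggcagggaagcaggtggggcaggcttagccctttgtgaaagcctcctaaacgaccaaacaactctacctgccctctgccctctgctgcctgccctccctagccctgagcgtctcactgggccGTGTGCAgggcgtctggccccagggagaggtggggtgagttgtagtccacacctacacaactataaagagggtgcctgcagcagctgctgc
Slc30a1, chr1:191906531-191906780: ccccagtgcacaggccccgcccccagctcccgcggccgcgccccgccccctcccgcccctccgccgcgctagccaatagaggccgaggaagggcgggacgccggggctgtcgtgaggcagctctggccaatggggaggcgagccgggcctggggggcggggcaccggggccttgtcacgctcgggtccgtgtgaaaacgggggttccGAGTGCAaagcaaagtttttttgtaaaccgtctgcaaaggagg

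Mt2 held 3 matches, at 223, 128 and 50 bases before its start. Mt1, Mt4 and Slc30a1 held 1 match each, and the windows of Mt3 and Mtf1 held none. Of 32851 promoters of the same length, 21.4% held at least 1 match and 1.26% held 3 or more, so a lone match is common. The core of the antioxidant response element, TGACNNNGC, occurred in the windows of Mt2 and Slc30a1 and in 10.2% of all promoters. The TATA box letters TATAAA occurred in the Mt4 window alone among the 6 and in 12.4% of all promoters. The GC box GGGCGG occurred 5 times in the Slc30a1 window, 2 times in that of Mt1 and 1 time in that of Mtf1. Of all promoters, 32.7% held at least 1, 16.7% at least 2 and 4.09% at least 4. E-box letters CACGTG were in none of the 6 windows and in 6.02% of promoters.

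**Figure D1:**
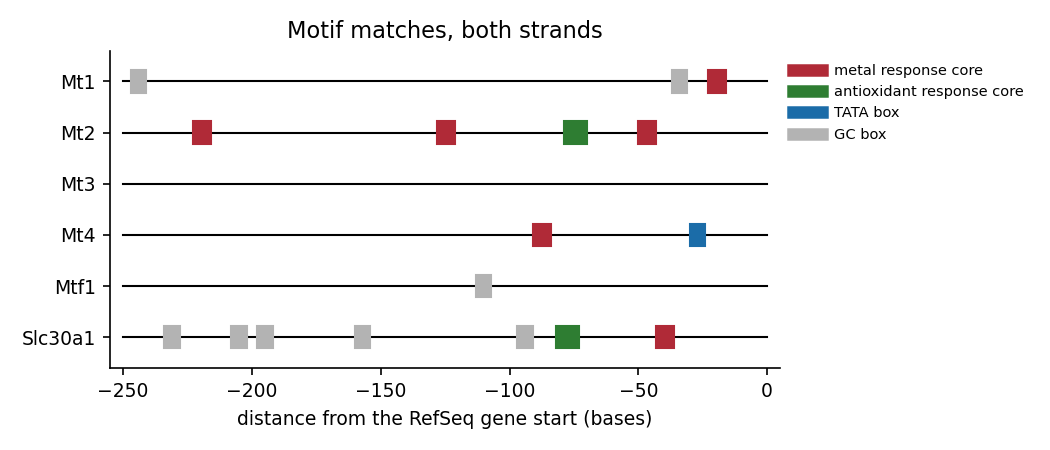
Motif matches on either strand in the 250 bases before the RefSeq start of each gene, with the x axis giving the distance from that start in bases. Mt2 has 3 metal response cores, Mt1, Mt4 and Slc30a1 have 1 each, and Mt3 and Mtf1 have none.

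Where a gene starts changes this picture. In GENCODE M21, counted from the first-numbered Mt2 transcript, which starts 46 bases after the RefSeq start, the 3 Mt2 matches lie 269, 174 and 96 bases upstream, and another Mt2 transcript starts 242 bases after the RefSeq start. Slc30a1 and Mtf1 also have transcripts with other starts. Bases after the RefSeq start were searched for Mt1 only, so matches nearer to the later starts of the other genes are unknown. GENCODE M21 lists 3 Mt1 transcripts, which start 7 bases before, 122 bases after and 152 bases after the RefSeq start. The 159 bases between the outermost and the innermost of these starts hold 4 further metal response cores and 1 TATA box, the TATA box 31 bases before the innermost start. These sites are part of the transcript when transcription begins at the outermost start and lie upstream of it when it begins at the innermost start. They are printed on the plus strand of GRCm38 chromosome 8 with 4 flanking bases, the match in capitals.
Site 150 bases before the innermost start: gctcTGCACTCcgcc
Site 132 bases before the innermost start: aaagTGCGCTCggct
Site 68 bases before the innermost start: tgctGGGTGCAaacc
Site 54 bases before the innermost start: ccttTGCGCCCggac
TATA box 31 bases before the innermost start: cgacTATAAAgagg

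The libraries held 36692204 counts in replicate 1 and 33489967 in replicate 2. Keratinocyte markers were abundant, with all 6 basal and all 6 spinous markers at 10 CPM or more in both libraries, where CPM is the count scaled to a common library total. Their summed levels were 9797 and 14044 CPM for basal and 3198 and 6345 CPM for spinous markers in replicates 1 and 2. Markers of other cells were abundant too, and in replicate 1 the fibroblast sum was above each of these keratinocyte sums. All 8 fibroblast and all 7 myeloid markers passed 10 CPM in both libraries, with summed levels of 13199 and 6550 CPM for fibroblasts and 6953 and 7612 CPM for myeloid cells in replicates 1 and 2. Endothelial, melanocyte, mural and Schwann markers summed to between 14.3 and 132 CPM per library, and the mural marker Tagln had no count in replicate 1. Xist RNA counted 112587 in replicate 1 against 11 in replicate 2, while the Y-linked Ddx3y had 0 and 1618 in replicates 1 and 2. Replicate 1 thus held female and replicate 2 male sex-linked RNA, so the libraries did not come from the same animal. In every difference between the libraries given below, sex and other differences between the replicates cannot be told apart. In these bulk libraries more cells of a type and more RNA per cell cannot be told apart, and which cells of the sorted fraction made the metallothionein RNA is not given by the counts.

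Mt1 and Mt2 were among the most abundant RNAs of the fraction, and they made up nearly all metallothionein RNA. Mt1 measured 661 CPM in replicate 1 and 547 CPM in replicate 2, which gives 604 ± 80.7 CPM (SD, n = 2). Mt2 had 499 and 483 CPM in replicates 1 and 2, or 491 ± 11.0 CPM. Both stood near the top of the 15833 genes detected at 1 CPM in both libraries, Mt1 at the 99.0 percentile of CPM and Mt2 at the 98.7 percentile. Together the 4 metallothioneins took 0.117% of all counts in replicate 1 and 0.104% in replicate 2. Within this family, Mt1 and Mt2 held 99.5% of the counts in replicate 1 and 99.2% in replicate 2. The Mt2 count in replicate 1 and the Mt1 count in replicate 2 happen to be the same number, 18308, while Mt1 had 24244 counts in replicate 1 and Mt2 had 16189 in replicate 2.

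Mt4, the squamous epithelial member, was detected at a far lower level. It measured 5.53 and 7.94 CPM in replicates 1 and 2, from 203 and 266 counts, or 6.74 ± 1.70 CPM. Its short gene model raises it on the scale that divides by the deposited gene length (TPM), where it had 35.1 and 50.4 TPM in replicates 1 and 2 and stood at the 79.0 percentile of the detected genes, against the 30.1 percentile by CPM. Mt3, known from neurons, was at the floor with 4 counts in replicate 1 and 2 counts in replicate 2. In replicates 1 and 2 this gave 0.109 and 0.0597 CPM, beside the 0.0818 and 0.0896 CPM that 3 counts, the limit which a count of 0 allows, would make in these libraries. Mt3 therefore did not reach 1 CPM, and 5 of the 6 genes did so in both libraries.

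Mtf1 and Slc30a1 lay at moderate levels. Mtf1 measured 32.1 and 33.1 CPM in replicates 1 and 2, or 32.6 ± 0.695 CPM. Slc30a1 had 38.7 and 29.0 CPM in replicates 1 and 2, or 33.8 ± 6.87 CPM, a range that encloses both values of Mtf1. Per length, Mtf1 had 10.4 and 10.8 TPM in replicates 1 and 2 and stood at the 45.1 percentile of detected genes. Slc30a1 had 17.9 TPM in replicate 1 and 13.4 TPM in replicate 2, at the 54.4 percentile. On the TPM scale the order was Mt2, Mt1, Mt4, Slc30a1, Mtf1 and Mt3, and no neighbours in this order overlapped over the 2 libraries.

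**Figure D2:**
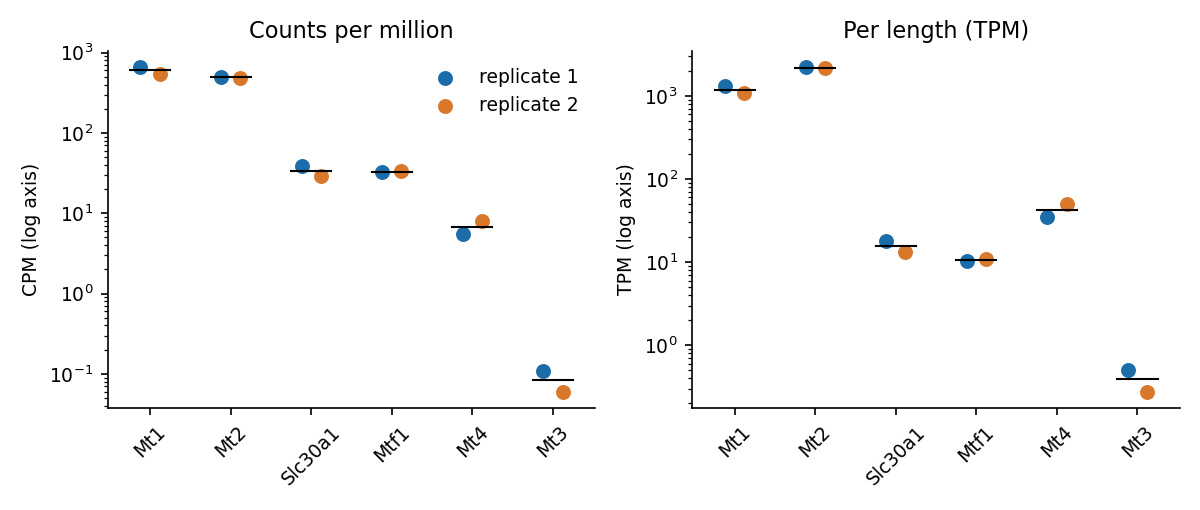
Level of each gene in each library on log axes, as CPM (left) and as TPM with the deposited gene lengths (right). Points are libraries and bars their mean. Mt1 and Mt2 stand between 483 and 661 CPM, and Mt4 lies above Slc30a1 and Mtf1 on the TPM scale and below them on the CPM scale.

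Which of Mt2 and Mt1 was the more abundant depended on the gene length. With the deposited lengths, 556 bases for Mt2 and 1258 bases for Mt1, Mt2 had 2223 TPM in replicate 1 and 2158 TPM in replicate 2. Mt1 then had 1301 and 1079 TPM in the same libraries. Mt2 was thus 1.71-fold above Mt1 in replicate 1 and 2.00-fold above it in replicate 2, a log2 ratio of 0.89 ± 0.16 (SD, n = 2). Without division by length the ratio turned to -0.29, with Mt1 the higher in both libraries. GENCODE's Mt1 transcripts run from 549 bases, fully spliced, to 1085 bases for the one that keeps the gene unspliced, and they gave different answers. With the longest coding transcript of each gene the log2 ratio was 0.79, with the first-numbered transcripts, 511 bases for Mt2 and 549 for Mt1, it was -0.19, and with the shortest coding transcripts it was 0.21. The transcript forms in these cells were not resolved by gene counts, so the order of Mt2 and Mt1 is not settled here. The length cancels between libraries, and on every scale the ratio was lower in replicate 1 than in replicate 2.

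**Figure D3:**
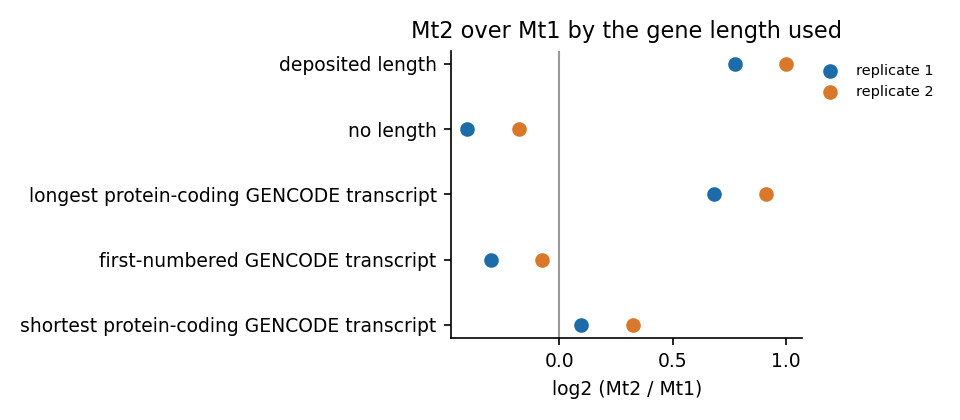
Log2 ratio of Mt2 over Mt1 in each library, with the gene length used for the division given on the y axis. The deposited lengths give 0.77 and 1.00 in replicates 1 and 2, and the ratio lies below 0 without length and with the first-numbered GENCODE transcripts.

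The metallothioneins shared no 31-base word with each other in the annotated transcripts. Of the words of this length in GENCODE transcripts of Mt1, Mt3 and Mt4, 100% occurred in no other gene, on either strand. Of the 573 such words of Mt2, 330 also occurred in Gm45774, an RNA annotated antisense to Mt2, with an identical stretch of 212 bases, and 3 occurred in Pip5k1a. No source used here states whether strand was used in counting, so reads of Mt2 and of an antisense RNA at that place cannot be told apart.

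The libraries were compared gene by gene, as the only comparison the design allows, with an exact two-sided binomial test that covers counting error. It compares these 2 libraries and no condition. Of 23690 tested genes, 44.1% passed the Benjamini-Hochberg adjusted threshold of 0.05, with 27.2% higher in replicate 1 and 16.9% lower. Of the 6 genes, 5 had enough counts to be tested. Mt1, Mt2 and Slc30a1 were called higher in replicate 1, Mt4 was called lower, and Mtf1 did not pass. At this depth a small difference is enough to pass.

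Mt1 was 1.21-fold higher in replicate 1 than in replicate 2 (95% counting interval 1.19 to 1.23, exact binomial adjusted p = 3.22e-82). Slc30a1 was 1.34-fold higher (1.23 to 1.45, exact binomial adjusted p = 2.79e-11). For Mt2 the ratio was 1.03 (1.01 to 1.05, exact binomial adjusted p = 0.00954). That small difference turned its direction with the scaling, to a log2 ratio of -0.031 with TMM library sizes and -0.037 with DESeq2 size factors, against 0.046 with library totals. Mt4 was lower in replicate 1, with a log2 ratio of -0.52 (-0.79 to -0.25, exact binomial adjusted p = 0.000406). Mtf1 had a log2 ratio of -0.043 (-0.16 to 0.08, exact binomial adjusted p = 0.608). Over all tested genes the median log2 ratio was 0.09 and the median absolute log2 ratio was 0.31. Among the 2265 tested genes at 100 CPM or more, where Mt1 and Mt2 lie, these medians were -0.013 and 0.16, and 26.5% of them differed at least as much as Mt1 and 84.2% as much as Mt2. Among the tested genes, 54.7% differed at least as much as Mt1 in either direction, 40.0% as much as Slc30a1, 33.0% as much as Mt4 and 91.0% as much as Mt2.

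**Figure D4:**
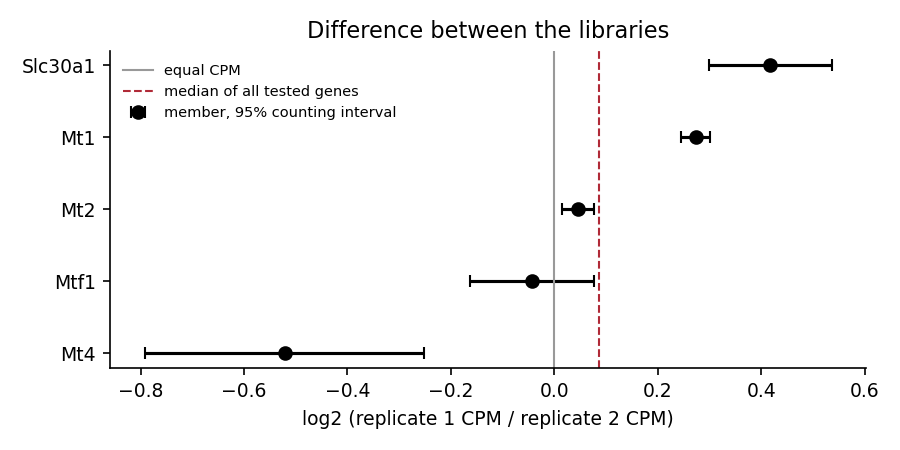
Log2 ratio of replicate 1 over replicate 2 for the 5 tested genes, with 95% intervals that cover counting error only. The grey line marks equal CPM and the dashed line the median of all tested genes, 0.09. Slc30a1 and Mt1 lie to the right of both lines, Mt4 to the left, and Mt2 and Mtf1 close to them.

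Against a spread shared by all genes and estimated from these same 2 libraries, none of these differences passed. edgeR's exact test, which uses a coefficient of variation of 22.9% shared by all tested genes, called 0 of the 5 genes, with adjusted p of 1 for each, and 0 also at an unadjusted p under 0.05. Over all genes the same test called 0.291%, with 0.215% higher and 0.076% lower in replicate 1. The differences between the libraries enter the spread they are tested against, so edgeR's test cannot decide whether a member differs. Scaling moved the split of the binomial calls among the 5 genes. It was 3 higher and 1 lower in replicate 1 with library totals, 2 and 1 with TMM, and 2 and 2 with DESeq2 size factors. Over all tested genes TMM gave 21.4% higher and 22.7% lower, and DESeq2 size factors gave 21% and 23.2%. Scaling to 10 junction genes shifted every log2 ratio by 0.40 and gave 4 higher and 0 lower of the 5, where 62% of all genes were higher and 3.16% lower. On that last scale Mtf1 was called higher, with a log2 ratio of 0.36, and Mt4 was no longer called, with a log2 ratio of -0.12 and an exact binomial adjusted p of 0.45.

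Marker lists moved between the libraries as well, where 27.2% of all tested genes were higher in replicate 1 and 16.9% lower. The 8 fibroblast markers were all higher in replicate 1, the library with more Mt1 and Slc30a1, at a median log2 ratio of 0.89. The 6 spinous markers were all lower there, as Mt4 was, at a median log2 ratio of -0.74. Basal markers were also all lower, at -0.41. Scaling to the junction genes split them into 3 higher and 3 lower, where 62% of all genes were higher and 3.16% lower. The myeloid markers had a median of -0.0095, with 2 higher and 3 lower. Their median turned to 0.39 with junction scaling, where the median of all genes was 0.49. The fibroblast and spinous directions held under all 4 scalings. The part of the fibroblast and spinous lists in the metallothionein differences was not tested.

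The other zinc transporters give the setting for Slc30a1. The Slc30 family moves zinc out of the cytosol, to the outside or into organelles, and the Slc39 family moves it in. Of the 10 Slc30 genes, Slc30a1 included, 7 reached 1 CPM in both libraries. The highest per length was Slc30a5, a transporter of the early secretory pathway, at 39.2 ± 4.37 TPM, and Slc30a1 was the fourth of the family at 15.6 ± 3.16 TPM. Slc30a7, which loads the Golgi, followed at 14.6 ± 1.10 TPM, and its values lie inside the range of Slc30a1. By CPM, without division by its deposited length of 15072 bases, Slc30a7 led the family at 93.3 and 83.7 CPM in replicates 1 and 2. Slc30a8, known from pancreatic beta cells, had no count, the manganese exporter Slc30a10 had 2 and 0 counts in replicates 1 and 2, and Slc30a3, known from synaptic vesicles, had 2 and 7.

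Of the 14 Slc39 genes, 12 reached 1 CPM in both libraries. Slc39a1, a plasma membrane importer, led all 24 transporters at 147 TPM in replicate 1 and 144 TPM in replicate 2. Slc39a7, which releases zinc from the endoplasmic reticulum, followed at 53.9 ± 1.08 TPM. At the low end, Slc39a5 had 0.314 ± 0.114 TPM, and Slc39a4, the intestinal importer that is mutated in acrodermatitis enteropathica in humans, was listed with 7 and 17 counts in replicates 1 and 2. The level of Slc39a1 per length was thus far above that of Slc30a1 in each library, and both metallothioneins Mt1 and Mt2 stood above every transporter.

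Between the libraries, 3 of 7 tested Slc30 genes were higher in replicate 1 and none lower, namely Slc30a1, Slc30a5 and Slc30a7, against 27.2% higher and 16.9% lower over all genes. Both TMM and DESeq2 size factors left 2 of the 7 higher, Slc30a7 no longer passing at log2 ratios of 0.081 and 0.074. Of all genes, 21.4% were higher with TMM and 21% with DESeq2 size factors. The family's median log2 ratio was 0.16 with library totals, 0.081 with TMM, 0.074 with DESeq2 size factors and 0.56 with junction scaling. In the same order the median of all genes was 0.09, 0.0098, 0.0035 and 0.49. Of 14 tested Slc39 genes, 6 were higher and 2 lower, beside the same shares of all genes, at a median of 0.07. They split into 4 higher and 3 lower with TMM, at a median of -0.0087, and into 3 and 3 with DESeq2 size factors, at -0.015. In the same order, 21.4% and 21% of all genes were higher, and 22.7% and 23.2% lower. Chosen after their values were seen, Slc39a12 counted 196 in replicate 1 and 71 in replicate 2, a log2 ratio of 1.33, and Slc39a14, an importer of zinc, iron and manganese, had a log2 ratio of 0.57. edgeR's exact test passed neither, with adjusted p of 0.321 for Slc39a12 and 1 for Slc39a14. The 2 lower genes were Slc39a6, at a log2 ratio of -0.22 (0.18 with junction scaling), and Slc39a2, at -0.56 from 107 and 144 counts in replicates 1 and 2.

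**Figure D5:**
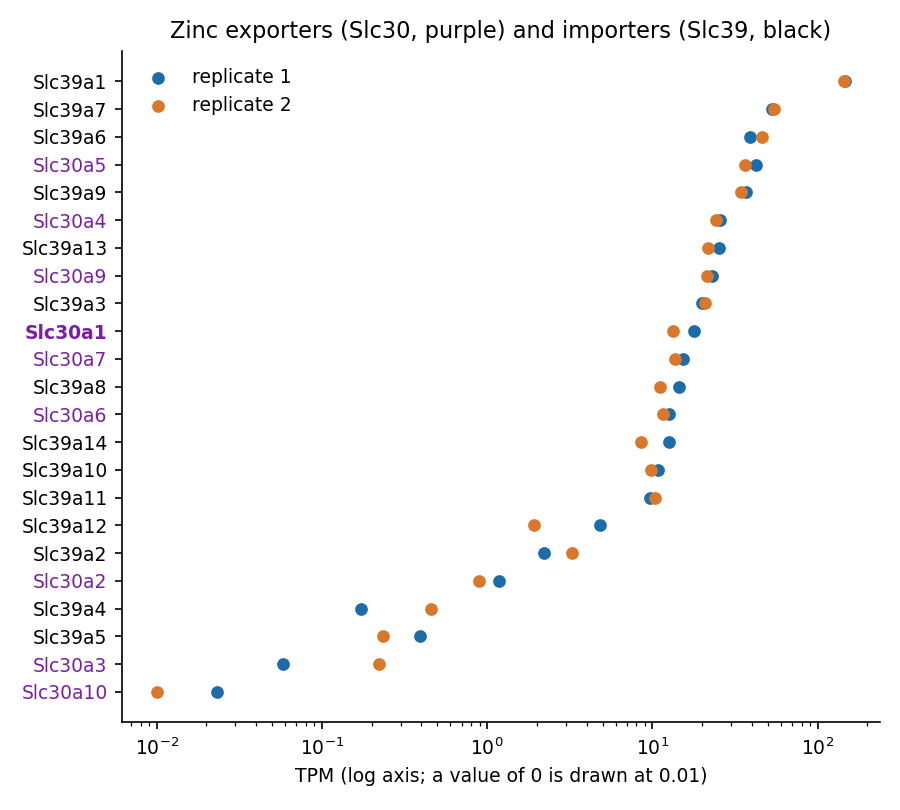
TPM of the 23 zinc transporter genes with a count, ordered by mean, on a log axis, with 1 point per library. Slc30a1 (bold) lies at 17.9 and 13.4 TPM in replicates 1 and 2, at place 10 of the order, and Slc39a1 leads at 147 and 144 TPM.

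Other genes reported to depend on Mtf1 in mouse cells were mixed. Of these 6, 5 reached 10 CPM in both libraries, 2 were higher in replicate 1, 1 was lower and 3 did not pass, where 27.2% of all genes were higher and 16.9% lower. Under TMM, and under DESeq2 size factors too, the split turned to 1 higher and 2 lower. Of all genes, 21.4% were higher and 22.7% lower with TMM, and 21% and 23.2% with DESeq2 size factors. Selenow, a small selenoprotein, had the highest level at 304 TPM, and Pgf, a placental growth factor, the lowest at 1.31 TPM. The higher genes were Gclc, the catalytic subunit of glutathione synthesis, at a log2 ratio of 0.46, and the importer Slc39a10, which Mtf1 represses, at 0.14. The Slc39a10 call was lost with TMM, at 0.068, and with DESeq2 size factors, at 0.062. The lower gene was Csrp1, at -0.29, which junction scaling turned to 0.11, where the median of all genes was 0.49. With library totals the median log2 ratio of the list was 0.09, as it was for all genes.

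Metallothioneins also bind copper. Of 9 copper handling genes, 8 reached 1 CPM in both libraries. The chaperone Atox1 had the highest mean at 198 TPM, although in replicate 1 its 175 TPM lay below the 199 TPM of Sod1, and the liver exporter Atp7b, which did not reach 1 CPM, was lowest at 0.0818 TPM. Between the libraries 2 of the 9 were higher in replicate 1 and 3 lower, against 27.2% and 16.9% of all genes. The higher ones were the exporter Atp7a, at a log2 ratio of 0.10, and the copper-zinc superoxide dismutase Sod1, at 0.65. Atp7a no longer passed with TMM or DESeq2 size factors, at 0.027 and 0.021. Lower were the importer Slc31a1 at -0.15, its relative Slc31a2 at -0.21 and Atox1 at -0.33. All of these lay above 0 with junction scaling, where the median of all genes was 0.49.

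Mt1 and Mt2 are also known to be induced by glucocorticoids. All 7 glucocorticoid-related genes were higher in replicate 1, at a median log2 ratio of 0.41, against the background of 27.2%. With TMM 5 were higher and 1, the clock gene Per1, lower, beside 21.4% and 22.7% of all genes. Sgk1, a kinase, had the highest mean of these at 172 TPM and a log2 ratio of 1.02, although in replicate 2 its 114 TPM lay below Per1 at 145 TPM and the leucine zipper gene Tsc22d3 at 132 TPM. Fkbp5, a chaperone partner of the receptor, had the lowest mean at 59.0 TPM and a log2 ratio of 0.94. For Sgk1 and Fkbp5 edgeR's exact test gave adjusted p of 0.527 and 0.637. Immediate early genes, which respond to digestion and sorting, went the other way, with 0 of 14 higher and 11 lower in replicate 1 beside 16.9% of all genes lower, at a median log2 ratio of -0.25. With TMM and with DESeq2 size factors all 14 were lower, beside 22.7% and 23.2% of all genes. Junction scaling turned their median to 0.15, where the median of all genes was 0.49. On that scale 12 were higher and 1 lower, beside 62% and 3.16% of all genes. The summed level of the immediate early genes was 23514 CPM in replicate 1 and 26855 CPM in replicate 2, led by Fos at 4226 TPM, with Egr2 lowest at 52.2 TPM. The level of Mt1 and Mt2 in the tissue before digestion is unknown, since no undisturbed skin is among these samples. The part of these lists in the Mt1 difference was not tested. The zinc, Mtf1-dependent, copper and glucocorticoid lists together, without the 6 genes, held 41 tested genes. Of these, 18 were higher in replicate 1 and 6 lower with library totals, beside 27.2% and 16.9% of all genes. With TMM 12 of the 41 were higher and 9 lower, beside 21.4% and 22.7%.

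Genes beside the metallothionein cluster were measured too. Nup93, of the nuclear pore, stood at 5.09 TPM, below Mt1 and Mt2. Nup93 and Nudt21 were higher in replicate 1, at log2 ratios of 0.22 and 0.17 with library totals, while with DESeq2 size factors neither was called higher.

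The genes nearest in level were found, with the deposited lengths, by the distance of log2(TPM + 0.5) over the 2 libraries among 23690 genes. For Mt1 they were C1qa, a complement gene of macrophages, at a distance of 0.19 and the ribosomal protein gene Rpl6 at 0.21. These change with the Mt1 length: with the 549 bases of the first-numbered transcript, Mt1 had 2977 and 2468 TPM in replicates 1 and 2 and the nearest were the ribosomal protein gene Rpl10 at 0.16 and the complement gene C1qb at 0.20. Rack1, of the small ribosomal subunit, and Cbr2 were nearest to Mt2, at 0.03 and 0.04. Slc30a1 stood beside the adhesion gene Ceacam1 and Ltbp1, a TGF-beta binding protein gene, at 0.01 and 0.02. Next to Mtf1 were Gm31742 and Gbp5, an interferon-inducible GTPase gene, at 0.0066 and 0.0092. With 2 libraries such likeness is one of level and of a single ratio.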

How the data were processed

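Total RNA depleted of ribosomal RNA was sequenced as paired-end reads of 150 bases, per the labels' protocols. The deposited tables give raw gene counts with gene lengths. featureCounts and mm39 are named in the submitters' processing notes, while aligner, annotation release, strand setting and handling of multi-mapped reads are not given in the sources. Of 50559 genes, 17803 had no count. From these counts CPM (per library total) and TPM (deposited length) were computed. Genes with 10 or more counts in total were compared between replicates, as replicate 1 over replicate 2, with the exact binomial test and Benjamini-Hochberg adjustment over all of them; intervals are Clopper-Pearson at 95% and, like the floor of 3 counts, cover counting error only. With 2 libraries an exact sign-flip permutation test of a level cannot fall below p = 0.5, so levels carry no test. Alternatives were TMM, DESeq2 size factors, scaling to 10 junction genes, no count filter, and edgeR's exact test with the common dispersion of an intercept-only fit, which is estimated from the same libraries. The binomial test, edgeR's exact test and the intervals were tested on simulated data, with a spread below the 22.9% used here. The other steps were not. Members, lists and tests were chosen with earlier results of these data known. Named are all 6 genes, the highest and lowest of each list by TPM, list members without a count or shared between lists, and the 2 genes nearest to each member at 10 CPM; other genes were chosen after their values were seen. Some genes that this rule names are not reported here. Promoters are from RefSeq (GRCm38.p6; all 6 genes matched) and transcripts from GENCODE M21. Software was Python 3.11.15, numpy 2.4.6, pandas 2.3.3, scipy 1.17.1, matplotlib 3.10.9, R 4.3.3, edgeR 4.0.16 and DESeq2 1.42.0.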

Additional observations from a re-analysis of the deposited data

How the results depend on the processing

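No paired analysis was possible because the series holds 1 group. Of 69 values under an alternative setting, 46 kept their direction and their side of the threshold or, for counts, stayed within 1.5 times the main count or, for levels, within 1 SD. The Mt2 ratio between replicates 1 and 2 turned to a log2 of -0.031 with TMM scaling and -0.037 under DESeq2 size factors, and that of Mtf1 to 0.36 with junction scaling. edgeR's exact test, with its spread estimated from the same 2 libraries, called 0 of the 5 tested members, higher or lower, against 4 by the binomial test. It called 0 of 41 genes of the zinc, Mtf1-dependent, copper and glucocorticoid lists, against 24 by the binomial test. By edgeR's test 3 of the 41 had an unadjusted p under 0.05, as did 7.78% of all genes. Members called lower in replicate 1 numbered 2 with DESeq2 size factors and 0 with junction scaling, against 1. List genes called numbered 37 with junction scaling, 37 higher and 0 lower, where 62% of all genes were higher and 3.16% lower. With DESeq2 size factors 11 list genes were higher, beside 21% of all genes, against 18 with library totals. The log2 ratio of Mt2 over Mt1, 0.89 with deposited lengths, was -0.29 without length, -0.19 with the first-numbered and 0.21 with the shortest coding GENCODE transcripts, the GENCODE lengths having been chosen after seeing the data. Leaving out a replicate gave 0.77 to 1.00 for this ratio, 1100 to 1236 CPM for the 6 genes summed, and 5 detected genes each time. Mt3, at 4 and 2 counts, is limited by depth.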
